A study of Mus musculus with 21 samples.

Results

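The second pharyngeal arch (PA2) of mouse embryos lacking the distal element HIRE1 was compared with the PA2 of wild-type (WT) embryos, across all genes. The 6 libraries of these 2 groups were chosen by their genotype and tissue labels from the 21 libraries of the series, and each group had 3. The remaining libraries came from the third arch (PA3) of the same genotypes and from neural crest cells sorted from PA2 and from the later pinna. HIRE1 lies on chromosome 6 outside the Hoxa gene cluster, and the comparison asks which genes besides Hoxa2 respond in PA2 when it is missing.

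Both groups were collected at E10.5, mid-gestation in the mouse. The mutant group, labelled HIRE1del/del and written HIRE1del here, carried a homozygous CRISPR-Cas9 deletion of HIRE1 made in zygotes, which is therefore present in every cell of the embryo and not only in the arch. HIRE1del and WT embryos shared a mixed C57Bl/6J;CD1 background. The methods state that embryos of both sexes were used. By their labels the libraries are cranial neural crest cells. A sort for a Wnt1::Cre reporter is described for the sorted crest libraries, and none is stated for the HIRE1del and WT arches, which were microdissected.

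Pharyngeal arches are paired swellings of the embryonic head and neck in which mesenchyme from the neural crest surrounds a core of mesoderm, between outer ectoderm and inner endoderm. Hoxa2 is the transcription factor that sets the second arch apart from the first, and in its absence the second arch forms skeletal elements of first-arch type in place of its own. Hox proteins bind DNA together with the TALE homeodomain proteins of the Pbx and Meis families.

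Of 14383 genes tested, 63 passed edgeR's quasi-likelihood test (Benjamini-Hochberg adjusted p under 0.05 over all tested genes). In HIRE1del 17 of them were higher and 46 lower. These are 0.438% of the tested genes in either direction, 0.118% higher and 0.320% lower. Genes are said to be called by this test unless another is named. DESeq2, run on the same counts, called 162 genes, all 63 among them. Levels are given as CPM, counts scaled to the size of the library, for each library, in the order of replicates 1, 2 and 3, and log2 fold changes as HIRE1del against WT with their standard error. The 3 WT and 3 HIRE1del values did not overlap in any of the 63, and they did not overlap in 13.2% of all tested genes. Most changes were moderate: 13 of the 46 had a log2 fold change of -1 or less, 7 of the 17 had one of 1 or more, and the other 43 were smaller. The median log2 fold change over all tested genes was -0.01. Beyond Hoxa2, Hoxa3 and 12 genes the study lists as Hoxa2 targets, 49 genes were called, and 29 of the 63 belonged to none of the 68 gene lists examined. At an unadjusted p under 0.05, 512 genes were higher (3.56%) and 721 lower (5.01%), 8.57% in either direction.

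**Figure D1:**
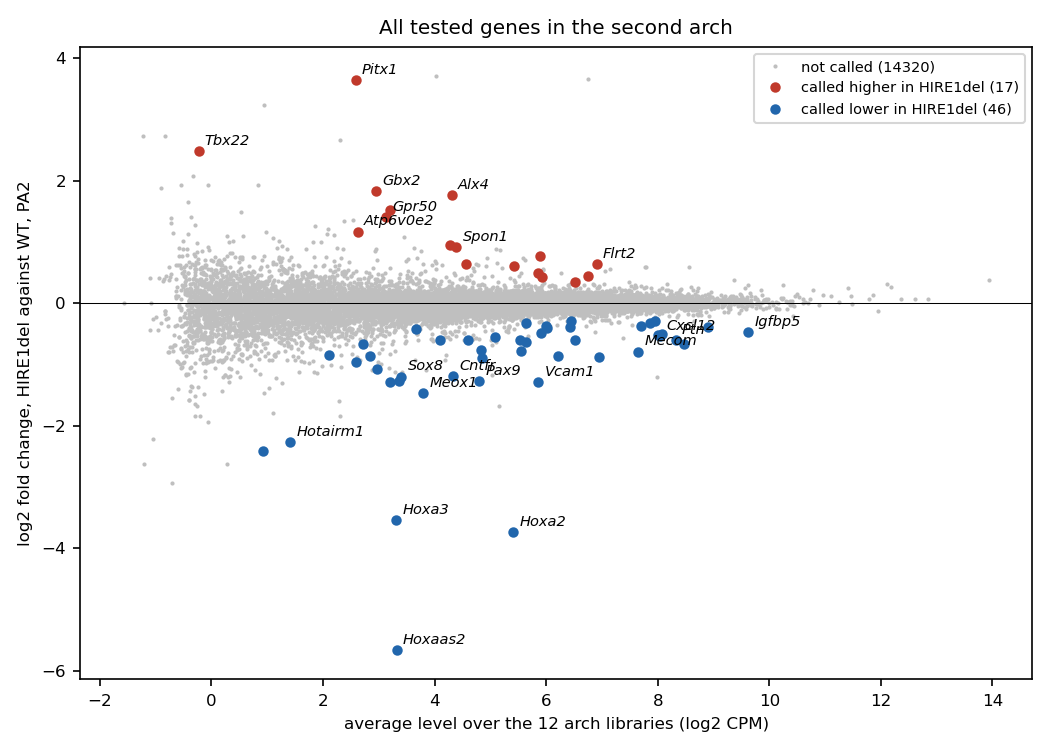
Log2 fold change of HIRE1del against WT in PA2 (vertical axis) against the average level over the 12 arch libraries (horizontal axis, log2 CPM), 1 point per tested gene. Red points are the 17 genes called higher and blue points the 46 called lower, and most called genes lie between a log2 fold change of -1 and 1.

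The 6 libraries held 25804446 to 32210131 counts each, and TMM scaling factors were 0.991 to 1.01. With a single library left out 33 to 66 genes were called, the count falling to 35 without WT replicate 2 and to 33 without WT replicate 3 or HIRE1del replicate 2. WT replicate 1 held 0.271 CPM of 4 Y-linked transcripts in sum, against 132 to 268 CPM in the other 5 libraries. Of the 63 calls, 13 were lost when this level entered the model as a covariate. Xist, made from the inactive X chromosome, was at 458, 288 and 108 CPM in WT and 117, 115 and 140 CPM in HIRE1del. The mix of sexes was therefore not balanced between the groups. Of 506 tested genes on the X chromosome 4 were called (Gpr50, Tbx22, Pcdh19 and Sytl4), and all 4 stayed called with the covariate. On the first principal component, WT replicate 1 and HIRE1del replicate 3 lay at opposite ends, and without both libraries 68 genes were called, 37 of them among the 63.

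The deleted region itself was not checked here. Hoxa2, the gene that HIRE1 is studied for, was at 73.4, 77.2 and 84.2 CPM in WT and 5.75, 4.75 and 7.09 CPM in HIRE1del (log2 fold change -3.74 ± 0.12, adjusted p = 1.56e-09). Of the 12 tested genes of the Hox clusters, 6 were called and all 6 were lower (Hoxa2, Hoxa3, Hoxaas2, Hotairm1, Hoxb3 and Hoxb3os), and all 12 had a negative log2 fold change (median -0.65). Hoxaas2, an antisense transcript between Hoxa2 and Hoxa3, was at 15.8, 18.0 and 18.8 CPM in WT and 0.301, 0.156 and 0.554 CPM in HIRE1del. The noncoding transcript Hotairm1, beside Hoxa2, was at 2.75, 2.10 and 3.73 CPM in WT and 0.864, 0.312 and 0.591 CPM in HIRE1del (log2 fold change -2.27 ± 0.31, adjusted p = 0.00377). Gm15050, another transcript of the cluster, was at 0.620, 0.772 and 0.677 CPM in WT and 0.0376, 0.0779 and 0.259 CPM in HIRE1del (log2 fold change -2.41 ± 0.42, adjusted p = 0.0205), which in HIRE1del replicates 1 and 2 is under the level of 3 counts (0.113 and 0.117 CPM). Its fitted fold change depends on the prior count and is no bound. Gm15050 was no longer called without any 1 of WT replicates 2 and 3 and HIRE1del replicates 1 and 2 (adjusted p up to 0.113). The Hoxb cluster lies on chromosome 11, away from the deletion. Hoxb3 was there at 11.6, 12.7 and 13.1 CPM in WT and 6.76, 6.31 and 6.98 CPM in HIRE1del (log2 fold change -0.90 ± 0.10, adjusted p = 0.000537), and its antisense partner Hoxb3os was at 35.0, 31.6 and 32.4 CPM in WT and 22.2, 21.0 and 20.8 CPM in HIRE1del (log2 fold change -0.63 ± 0.057, adjusted p = 0.000105). The exons of these 2 genes share 2250 bases on opposite strands. The kit is described as unstranded, while the counting is described as specific to 1 strand. Their reads can therefore not be taken as told apart there. Hoxb2, not called, was at 22.3 ± 3.60 CPM in WT and 14.8 ± 1.73 CPM in HIRE1del (mean ± SD, n = 3 in each group, here and below). Its log2 fold change was -0.59 ± 0.13 and its edgeR adjusted p = 0.0989, and DESeq2 called it lower (adjusted p = 0.00332).

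Other transcription factors changed in both directions. Among the TALE homeobox genes, Meis1 and Meis2 were lower and none of the other 14 tested was called by edgeR or DESeq2. Meis2 stood at 461, 435 and 454 CPM in WT and 274, 287 and 290.3 CPM in HIRE1del (log2 fold change -0.67 ± 0.047, adjusted p = 7.92e-06). Meis1 was at 309, 316 and 361 CPM in WT and 199, 245 and 247 CPM in HIRE1del (log2 fold change -0.51 ± 0.097, adjusted p = 0.0359). Calls in other homeobox and T-box families were mostly higher: Pitx1 and Alx4 of 12 paired-like genes, Lhx6 of 7 LIM genes and Tbx22 of 9 T-box genes. Tbx22, a repressor expressed in palate and tongue mesenchyme and mutated in X-linked cleft palate, was low in every library, at 0.387, 0.246 and 0.339 CPM in WT and 1.73, 1.13 and 2.59 CPM in HIRE1del (log2 fold change 2.48 ± 0.40, adjusted p = 0.0119). Its counts were 7 to 70 per library. Tbx22 was no longer called without either of WT replicates 2 and 3 (adjusted p up to 0.0766). Meis1 was no longer called with any 1 library but HIRE1del replicate 3 left out (adjusted p up to 0.202), nor Lhx6 with any 1 of the 6 libraries left out (adjusted p up to 0.23) or with the Y-linked level as a covariate (adjusted p = 0.126).

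Of 28 tested genes in a list of NKL homeobox genes and their relatives, Barx1 and Gbx2 were higher and Meox1 lower. Gbx2 and Meox1 are relatives and not themselves NKL genes. Barx1, which marks tooth and jaw mesenchyme, was at 57.7, 55.8 and 51.2 CPM in WT and 94.2, 93.3 and 93.6 CPM in HIRE1del (log2 fold change 0.77 ± 0.12, adjusted p = 0.00854), its HIRE1del values nearly equal. Meox1, of the somites, was at 10.7, 11.2 and 8.87 CPM in WT and 3.98, 2.61 and 4.43 CPM in HIRE1del (log2 fold change -1.47 ± 0.16, adjusted p = 0.000537). The Dlx genes of this list, which pattern the arches from proximal to distal, were singled out after their values were seen. Dlx1 was at 145 ± 18.1 CPM in WT and 210.2 ± 31.2 CPM in HIRE1del, Dlx2 at 51.0 ± 3.07 CPM in WT and 69.7 ± 5.98 CPM in HIRE1del and Dlx5 at 32.0 ± 1.49 CPM in WT and 41.4 ± 3.42 CPM in HIRE1del. The values did not overlap between the groups for Dlx1, Dlx2, Dlx5 and Dlx6, with log2 fold changes of 0.53, 0.45, 0.37 and 0.24, but none passed the test (adjusted p = 0.143, 0.0721, 0.209 and 0.418). DESeq2 called Dlx1, Dlx2 and Dlx5. Dlx3 lay the other way, at 91.6 ± 3.98 CPM in WT and 70.3 ± 6.75 CPM in HIRE1del, and was not called by either tool. Barx1 was no longer called without either of WT replicates 2 and 3 (adjusted p up to 0.0689). Gbx2 was no longer called without either of WT replicates 1 and 2 (adjusted p up to 0.0626).

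Sox8, Pax9 and Mecom were lower. Sox8 is an SRY-box factor of neural crest and glia, Pax9 a paired-box factor needed for derivatives of the pharyngeal pouches and for teeth and palate, and Mecom a zinc finger factor also known as Evi1. Sox8 was at 13.9, 14.6 and 12.2 CPM in WT and 6.39, 5.18 and 6.10 CPM in HIRE1del (log2 fold change -1.20 ± 0.11, adjusted p = 0.000145). Its annotated exons share 329 bases with an antisense transcript on the opposite strand, 10.6% of its length. Pax9 was at 21.3, 18.7 and 17.6 CPM in WT and 8.49, 5.69 and 9.53 CPM in HIRE1del (log2 fold change -1.28 ± 0.16, adjusted p = 0.00112), and Mecom, the most abundant of the 3, at 255, 217 and 239.9 CPM in WT and 139, 139 and 133.5 CPM in HIRE1del (log2 fold change -0.79 ± 0.076, adjusted p = 0.000155). In all 3 genes every HIRE1del library lay below the lowest WT library. Sox8 was the single call of 15 tested Sox genes (median 0.06), and Sox11, the most abundant, was at 1132 ± 53.2 CPM in WT and 1134 ± 54.5 CPM in HIRE1del. Of the 32 forkhead genes, 36 bHLH genes, 22 nuclear receptors, 25 Krüppel-like and Sp factors and 7 Zic and Gli genes tested, 0 were called (edgeR), while at an unadjusted p under 0.05 these 5 families held 7 higher and 12 lower genes, and DESeq2 called 6. Abundant members, in WT and HIRE1del, were Foxp1 at 188 and 197 CPM and Sp3 at 276 and 263 CPM. Zfp503 and Zfp703, zinc finger co-repressors, were both lower, at 77.9, 89.6 and 89.4 CPM in WT and 45.4, 44.6 and 52.0 CPM in HIRE1del for Zfp503 and 31.7, 32.9 and 37.7 CPM in WT and 22.7, 21.1 and 23.4 CPM in HIRE1del for Zfp703. They were edgeR's only 2 calls of 363 tested genes named Zfp, to which DESeq2 added Zfp467, lower. Zfp703 was no longer called without any 1 of WT replicates 2 and 3 and HIRE1del replicates 1 and 2 (adjusted p up to 0.137).

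Among signals and receptors edgeR called no more than 2 genes in any pathway list, and DESeq2 up to 5. In the Wnt pathway 2 of 76 tested genes were called, Rspo2, a secreted agonist, higher and Fzd4, a receptor, lower, and the pathway's median was -0.04. Rspo2 was at 15.2, 15.6 and 15.1 CPM in WT and 27.9, 31.3 and 29.6 CPM in HIRE1del and Fzd4 at 173, 158 and 168 CPM in WT and 88.3, 91.7 and 91.6 CPM in HIRE1del, and in both the groups were well separated. Beta-catenin (Ctnnb1), its central effector, was at 1733 ± 7.98 CPM in WT and 1735 ± 47.7 CPM in HIRE1del. The target Ccnd1, a cyclin that drives entry into S phase, was at 376 ± 15.8 CPM in WT and 452 ± 12.7 CPM in HIRE1del, chosen after its values were seen (log2 fold change 0.27 ± 0.057). It did not pass edgeR's test (adjusted p = 0.0721) and was called by DESeq2.

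Cntfr, the receptor subunit that binds ciliary neurotrophic factor, was lower in every HIRE1del library. It was at 31.1, 31.9 and 30.3 CPM in WT and 14.4, 12.04 and 14.4 CPM in HIRE1del (log2 fold change -1.19 ± 0.098, adjusted p = 4.39e-05). Its partner chain Il6st (gp130) was at 138 ± 5.16 CPM in WT and 126 ± 10.7 CPM in HIRE1del and was not called. Cxcl12, the chemokine that guides cells carrying Cxcr4, was at 257, 253 and 260.4 CPM in WT and 179, 169 and 183 CPM in HIRE1del (log2 fold change -0.54 ± 0.10, adjusted p = 0.0326). The 3 values of each group lay close together and the groups were well apart. Together these made 2 called of the 39 tested ligands and receptors of the PDGF, VEGF, chemokine and neurotrophic cytokine list (median -0.08), and Pdgfra, the most abundant receptor of the list, was at 538 ± 55.7 CPM in WT and 439.9 ± 44.8 CPM in HIRE1del. DESeq2 called Hgf as well, lower. Ptn encodes pleiotrophin, a heparin-binding growth factor, and was one of the most abundant called genes, at 478, 444 and 482 CPM in WT and 283, 295 and 343 CPM in HIRE1del (log2 fold change -0.61 ± 0.12, adjusted p = 0.0359). Cxcl12 was no longer called with any 1 of the 6 libraries left out (adjusted p up to 0.166), nor Ptn with any 1 library but HIRE1del replicate 3 left out (adjusted p up to 0.176).

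Among modulators of growth factors, Igfbp5, a binding protein for insulin-like growth factors, was at 474, 472 and 485 CPM in WT and 353, 326 and 355 CPM in HIRE1del (log2 fold change -0.47 ± 0.055, adjusted p = 0.000804). It was the single called gene of 15 tested in the IGF pathway, where Igf2 stood at 668 ± 37.1 CPM in WT and 659 ± 67.1 CPM in HIRE1del and Igf2r at 514 ± 10.96 CPM in WT and 491 ± 18.99 CPM in HIRE1del. Fstl1, a follistatin-like secreted protein that binds BMPs, was at 429, 448 and 429 CPM in WT and 310.0, 315 and 375 CPM in HIRE1del (log2 fold change -0.39 ± 0.072, adjusted p = 0.0354) and was edgeR's single call among 53 BMP and TGF-beta genes (median -0.10). Among the HIRE1del libraries, replicate 3 was the highest in Fstl1 and nearest to WT. DESeq2 also called Bmp5, Grem1 and Id2 lower and Nbl1 higher in this list. Bmp5, a ligand whose loss in mice gives short ears, was singled out after its values were seen. It was at 15.8 ± 1.09 CPM in WT and 10.4 ± 0.673 CPM in HIRE1del and was not called by edgeR (log2 fold change -0.60 ± 0.14, adjusted p = 0.101; DESeq2 adjusted p = 0.00807). Pik3r1, the regulatory subunit of phosphoinositide 3-kinase that acts downstream of growth factor receptors, was at 78.0, 76.6 and 79.3 CPM in WT and 58.1, 56.6 and 63.6 CPM in HIRE1del (log2 fold change -0.39 ± 0.064, adjusted p = 0.0143). Trib2, a Tribbles pseudokinase, was higher instead, at 99.7, 98.9 and 95.5 CPM in WT and 127, 119 and 127 CPM in HIRE1del (log2 fold change 0.34 ± 0.06, adjusted p = 0.021). Fstl1 was no longer called with any 1 library but HIRE1del replicate 3 left out (adjusted p up to 0.182) or with the Y-linked level as a covariate (adjusted p = 0.0519), nor Pik3r1 with any 1 library but HIRE1del replicate 3 left out (adjusted p up to 0.0977). Trib2 was no longer called with any 1 library but HIRE1del replicate 2 left out (adjusted p up to 0.124).

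In the FGF pathway 1 of 39 genes was called, Flrt2, an adhesion molecule, which was higher. Of the 16 tested ligands of this pathway 15 had a negative log2 fold change, against 7637 of all 14383 tested genes. The median of the ligands was -0.24, and none was called (edgeR). At an unadjusted p under 0.05, 2 of these ligands were lower, and DESeq2 called Fgf15. Fgf15, singled out after its values were seen, was low, at 5.16 ± 0.273 CPM in WT and 2.42 ± 0.355 CPM in HIRE1del (log2 fold change -1.09 ± 0.23, adjusted p = 0.0701). The receptor Fgfr1 was at 189.5 ± 9.93 CPM in WT and 194 ± 12.2 CPM in HIRE1del and the feedback phosphatase Dusp6 at 203 ± 27.6 CPM in WT and 202 ± 41.3 CPM in HIRE1del. No gene was called in the Hedgehog (18 tested, median 0.02), Notch (22 tested, median -0.02) or retinoic acid (21 tested, median 0.02) pathways. At an unadjusted p under 0.05 these 3 held 1 higher and 5 lower genes, and DESeq2 called 0. The Hedgehog transducer Smo was at 296 ± 12.3 CPM in WT and 297 ± 14.3 CPM in HIRE1del, the receptor Notch2 at 310.5 ± 11.7 CPM in WT and 310.4 ± 20.8 CPM in HIRE1del and the retinoic acid binding protein Crabp2 at 189.9 ± 3.61 CPM in WT and 217 ± 12.6 CPM in HIRE1del. In the endothelin and distal arch list, Barx1 was edgeR's single call among 23 genes, and DESeq2 also called Dlx1, Dlx2 and Dlx5 higher and Ednrb lower.

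The upstream sequences of called genes were searched for TGATNNAT, a composite site of Pbx and Hox proteins, and TGACAG, a Meis site, on both strands of the 250 bases before each RefSeq start (build GRCm38.p6). Promoters were in the table for 44 of the 63 called genes, as 59 windows. TGATNNAT was present in 5 of the 59 windows (8.47%), against 3.87% of the windows of all tested genes and 7.69% of all windows in the table. Of these 5, 2 are overlapping windows of Cntfr that hold the same site. By gene it was present in 4 of 44 (9.09%), Hoxa2 among them, against 4.63% of tested genes and 8.82% of all genes with a window. TGACAG was present in 8 of 59 (13.6%), against 13.8% and 15.9%. Besides the Hoxa2 promoter, the windows with TGATNNAT belonged to Cntfr and Mecom, which were lower, and Trib2, which was higher. These 3 are shown 5′ to 3′ on the minus strand with the matches in capitals: the Cntfr window at chr4:41696038-41696287, 30 bases at chr3:30509772-30509801 inside an annotated exon at Mecom, and the part of the Trib2 window free of annotated exons at chr12:15816923-15817002, in which TGACAG also matches.
Cntfr: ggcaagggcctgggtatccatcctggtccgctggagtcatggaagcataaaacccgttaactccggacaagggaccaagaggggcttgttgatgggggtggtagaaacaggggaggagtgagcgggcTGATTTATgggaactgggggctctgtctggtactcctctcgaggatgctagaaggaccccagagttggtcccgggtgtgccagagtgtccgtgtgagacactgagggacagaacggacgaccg
Mecom: ccaaatcaaagTGATAAATcgctccaaact
Trib2: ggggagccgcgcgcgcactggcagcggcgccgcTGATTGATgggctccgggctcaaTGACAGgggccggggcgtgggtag

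Netrins, semaphorins and the repulsive guidance molecules are secreted or membrane cues that attract or repel migrating cells and axons. Ntn1, encoding netrin-1, was at 44.0, 39.0 and 40.6 CPM in WT and 27.8, 19.8 and 24.8 CPM in HIRE1del (log2 fold change -0.77 ± 0.14, adjusted p = 0.0354). Rgmb, a repulsive guidance molecule and BMP co-receptor, was at 74.1, 75.5 and 75.6 CPM in WT and 62.9, 59.8 and 56.6 CPM in HIRE1del (log2 fold change -0.33 ± 0.054, adjusted p = 0.0135). These were edgeR's 2 calls among 20 Slit, Robo and netrin genes (median -0.13), both lower, and the receptors Neo1, Unc5c and Robo1 were not called, with Neo1 at 249 ± 17.4 CPM in WT and 256 ± 15.9 CPM in HIRE1del. The netrin receptor Dcc, singled out after its values were seen, was at 4.54 ± 0.655 CPM in WT and 2.32 ± 0.789 CPM in HIRE1del (edgeR adjusted p = 0.171) and was called lower by DESeq2 (adjusted p = 0.0347). Crmp1, which mediates the response to semaphorins inside the cell, was at 66.9, 61.4 and 61.2 CPM in WT and 46.6, 45.0 and 43.9 CPM in HIRE1del (log2 fold change -0.48 ± 0.06, adjusted p = 0.00137). Sema5a, a transmembrane semaphorin, went the other way, at 103, 120.4 and 121 CPM in WT and 145, 156 and 167 CPM in HIRE1del (log2 fold change 0.44 ± 0.08, adjusted p = 0.0309). It was edgeR's single call of 29 semaphorin, plexin and neuropilin genes (DESeq2 called Sema3a too, higher), among which Plxnb2 was at 413 ± 19.3 CPM in WT and 430.1 ± 24.9 CPM in HIRE1del. Ntn1 was no longer called with any 1 library but HIRE1del replicate 1 left out (adjusted p up to 0.165) or with the Y-linked level as a covariate (adjusted p = 0.0919), nor Rgmb without any 1 of WT replicates 2 and 3 and HIRE1del replicates 2 and 3 (adjusted p up to 0.0851). Sema5a was no longer called with any 1 library but HIRE1del replicate 1 left out (adjusted p up to 0.119) or with the Y-linked level as a covariate (adjusted p = 0.0919).

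Flrt2 and Pcdh19, adhesion molecules of the cell membrane, were higher. Flrt2, a ligand of Unc5 receptors and a partner of FGF receptors, was at 98.1, 111 and 121 CPM in WT and 148, 165 and 198 CPM in HIRE1del (log2 fold change 0.63 ± 0.12, adjusted p = 0.0294). Pcdh19, an X-linked delta-protocadherin, was at 46.8, 50.3 and 53.5 CPM in WT and 69.9, 82.1 and 77.0 CPM in HIRE1del (log2 fold change 0.60 ± 0.096, adjusted p = 0.0118) and was the single call of 57 protocadherins. Many clustered protocadherins share their constant exons, so that their counts are not separate measurements. Vcam1, an adhesion molecule bound by integrin alpha-4, fell to 40.9% of the WT mean, at 66.6, 61.6 and 61.8 CPM in WT and 23.1, 19.9 and 34.6 CPM in HIRE1del (log2 fold change -1.29 ± 0.20, adjusted p = 0.00787). The 3 WT values were close together, while HIRE1del replicate 3 stood above the other 2 mutant libraries and still below WT. No integrin (26 tested) or cadherin (14 tested) was called by edgeR, with 4 and 4 at an unadjusted p under 0.05 and 1 each by DESeq2. These 2, named after their values were seen, were Itga4, the integrin alpha-4 chain itself, at 6.62 ± 1.27 CPM in WT and 11.03 ± 0.995 CPM in HIRE1del, and Cdh11, at 492 ± 19.2 CPM in WT and 430.3 ± 21.2 CPM in HIRE1del. Farp1, a guanine nucleotide exchange factor, was at 292, 311 and 308 CPM in WT and 247, 249 and 246 CPM in HIRE1del (log2 fold change -0.30 ± 0.043, adjusted p = 0.00543), and Tns3, a tensin of focal adhesions, at 229.9, 243 and 230.1 CPM in WT and 182, 187 and 192 CPM in HIRE1del (log2 fold change -0.32 ± 0.059, adjusted p = 0.0294). Both changes were small, and the 3 values of each group lay close together. Flrt2 was no longer called with any 1 library but HIRE1del replicate 1 left out (adjusted p up to 0.133) or with the Y-linked level as a covariate (adjusted p = 0.0645), nor Pcdh19 without any 1 of WT replicates 1 and 2 and HIRE1del replicate 2 (adjusted p up to 0.0829). Vcam1 was no longer called without HIRE1del replicate 1 (adjusted p up to 0.0529). Tns3 was no longer called with any 1 of the 6 libraries left out (adjusted p up to 0.13) or with the Y-linked level as a covariate (adjusted p = 0.0822).

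No Eph receptor or ephrin passed the test by edgeR (21 tested, 4 lower and 0 higher at an unadjusted p under 0.05). The 3 that DESeq2 called were Epha3, Epha4 and Ephb2, all lower in HIRE1del. Epha3 was at 209 ± 20.2 CPM in WT and 141 ± 25.4 CPM in HIRE1del, Epha4 at 196 ± 14.6 CPM in WT and 158 ± 14.2 CPM in HIRE1del and Ephb2 at 121 ± 6.01 CPM in WT and 102 ± 0.731 CPM in HIRE1del, with edgeR adjusted p = 0.0732, 0.175 and 0.0732. Efnb2, the most abundant ephrin, was at 244 ± 12.6 CPM in WT and 265 ± 9.80 CPM in HIRE1del.

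**Figure D2:**
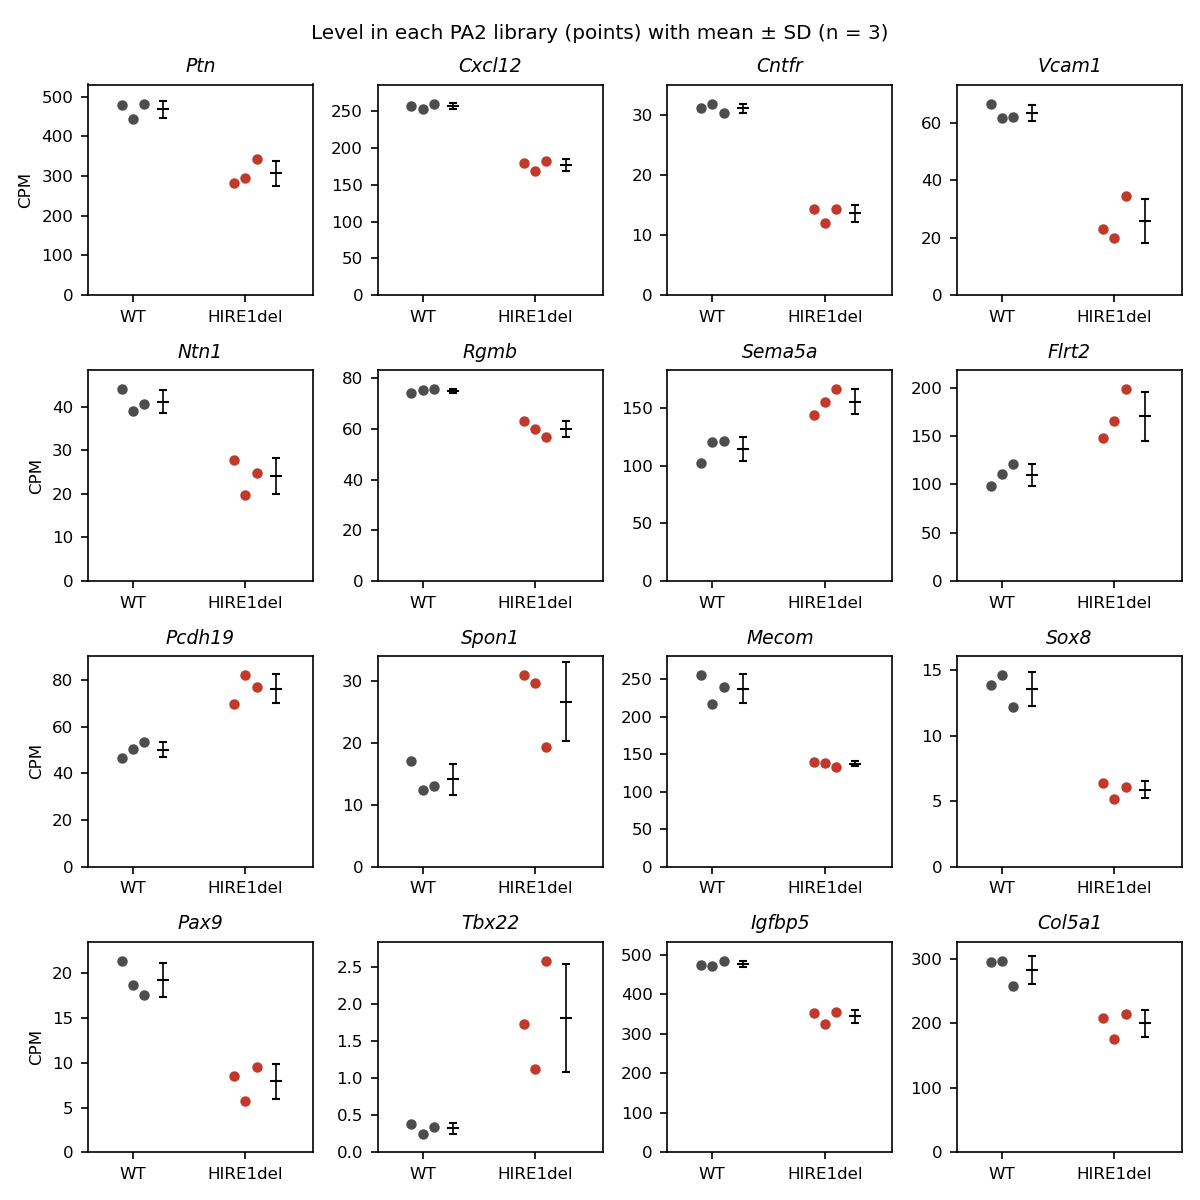
Level (CPM, axes from 0) of 16 called genes in each PA2 library, as points for replicates 1 to 3 from left to right, with the mean and SD as a bar beside them (n = 3 per group). In each panel the WT and HIRE1del points do not overlap.

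Col5a1, a chain of type V collagen that nucleates fibrils, was at 295, 297 and 259 CPM in WT and 209, 176 and 215 CPM in HIRE1del (log2 fold change -0.50 ± 0.071, adjusted p = 0.00458). It was edgeR's single call of 38 collagen chains (median -0.09), and Col3a1 was at 1193 ± 93.7 CPM in WT and 1194 ± 139.6 CPM in HIRE1del. DESeq2 also called Col14a1 lower (adjusted p = 0.0318) and Col2a1 higher (adjusted p = 0.0167). Col2a1, the collagen of cartilage, was at 807 ± 58.2 CPM in WT and 961 ± 41.6 CPM in HIRE1del. Spon1, or F-spondin, a secreted matrix protein first known from the floor plate, was higher, at 17.0, 12.3 and 13.0 CPM in WT and 30.9, 29.6 and 19.3 CPM in HIRE1del (log2 fold change 0.92 ± 0.17, adjusted p = 0.0354). HIRE1del replicate 3 lay nearest to WT in this gene. Spon1 was edgeR's single call of 54 proteoglycans and matrix glycoproteins, and Gpc3, the most abundant, was at 814 ± 21.1 CPM in WT and 912 ± 59.0 CPM in HIRE1del. Smoc2, singled out after its values were seen, was at 12.6 ± 1.29 CPM in WT and 23.5 ± 3.31 CPM in HIRE1del (edgeR adjusted p = 0.117). DESeq2 called it higher (adjusted p = 0.00454), with Emilin2 higher and Sdc2 lower. Spon1 was no longer called without any 1 of WT replicates 2 and 3 and HIRE1del replicates 1 and 2 (adjusted p up to 0.202).

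A list of 14 skeletal genes known to change in arches without Hoxa2 held 4 called genes, all higher (Pitx1, Alx4, Lhx6 and Barx1), with a median of 0.35. All 4 are among the 12 targets the study lists, so that their direction is not independent evidence. Sox9 was at 39.1 ± 1.17 CPM in WT and 46.0 ± 2.94 CPM in HIRE1del. Of 17 chondrogenic, 16 osteogenic and 29 outer ear genes 0 were called by edgeR, with medians of 0.12, 0.03 and -0.06. At an unadjusted p under 0.05 the 3 lists held 6, 4 and 4 genes, and DESeq2 called 1, 2 and 1. The collagen Col1a2 was at 302 ± 38.4 CPM in WT and 315 ± 66.5 CPM in HIRE1del and the transcription co-factor Cbfb at 221 ± 13.5 CPM in WT and 219.8 ± 21.1 CPM in HIRE1del.

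**Figure D3:**
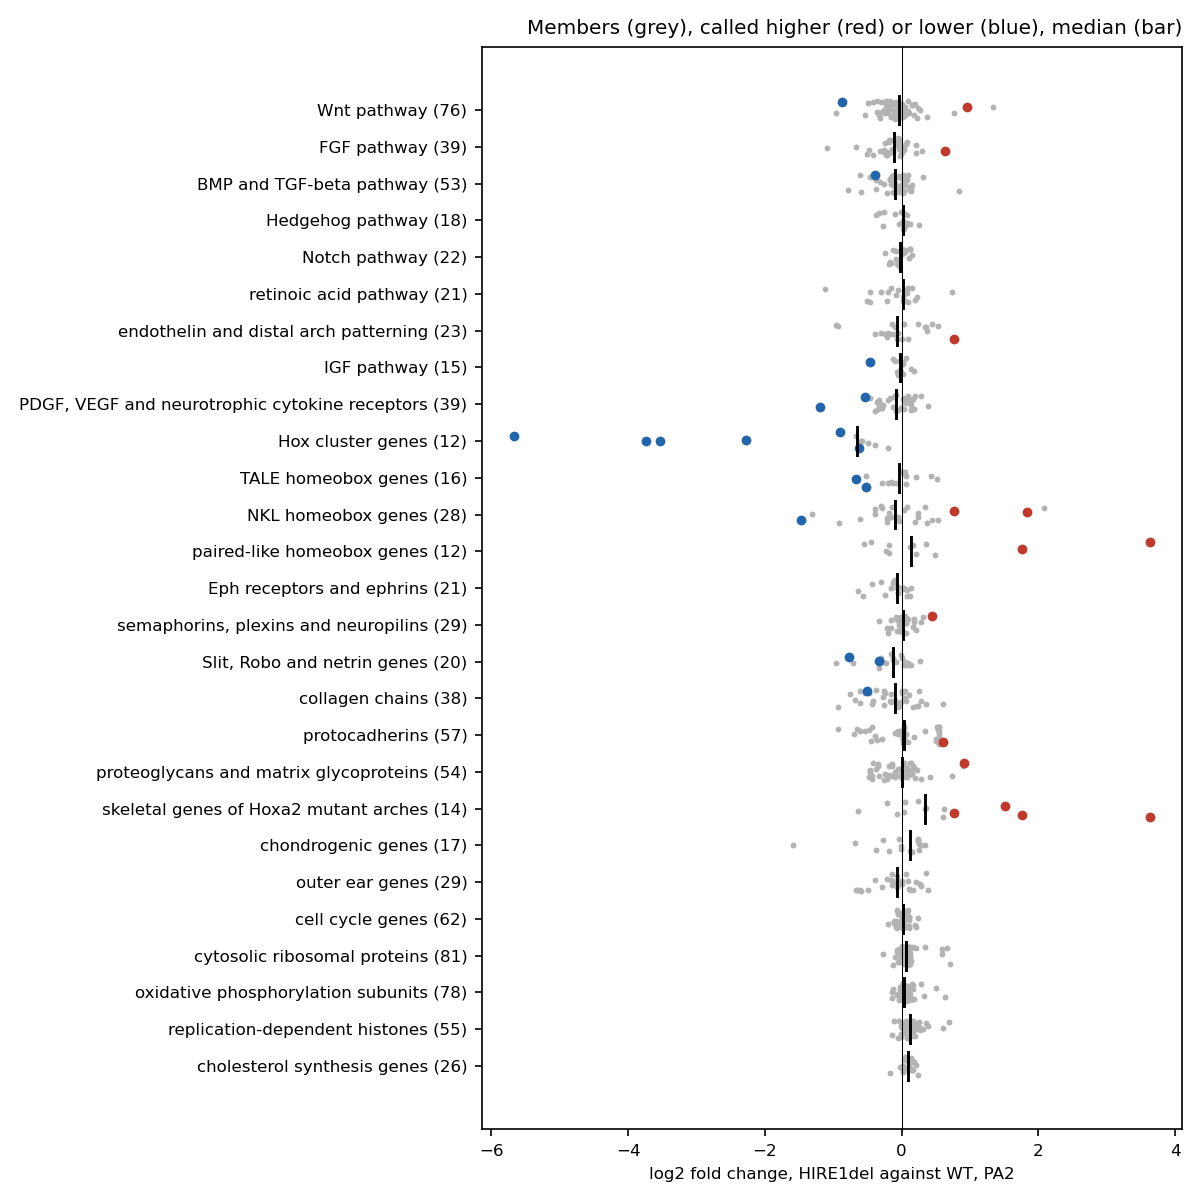
Log2 fold change of HIRE1del against WT in PA2 for the tested members of 27 gene lists (number tested in brackets). Grey points are members not called, red and blue points members called higher and lower, and black bars medians. The Hox cluster list has a median of -0.65 and the list of skeletal genes of Hoxa2 mutant arches one of 0.35. The other lists have medians from -0.13 to 0.14, with few or no called members.

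Syt13 and Sytl4, relatives of the synaptotagmins that act in vesicle docking, were both lower. Syt13 was at 4.76, 4.87 and 6.22 CPM in WT and 2.14, 2.22 and 2.14 CPM in HIRE1del (log2 fold change -1.29 ± 0.20, adjusted p = 0.0115), and Sytl4 at 7.47, 10.8 and 11.9 CPM in WT and 4.47, 4.33 and 5.51 CPM in HIRE1del (log2 fold change -1.08 ± 0.16, adjusted p = 0.00785). The chloride channel gene Ano1 was at 17.2, 20.2 and 19.7 CPM in WT and 11.01, 11.3 and 10.9 CPM in HIRE1del (log2 fold change -0.78 ± 0.14, adjusted p = 0.0205). Plpp3, a phosphatase that breaks down lysophosphatidic acid and sphingosine 1-phosphate outside the cell, was at 109, 106 and 102 CPM in WT and 70.9, 67.7 and 68.8 CPM in HIRE1del (log2 fold change -0.61 ± 0.10, adjusted p = 0.0199). Hpgd, which inactivates prostaglandins, was at 7.63, 7.51 and 7.97 CPM in WT and 3.87, 3.31 and 4.62 CPM in HIRE1del (log2 fold change -0.97 ± 0.17, adjusted p = 0.0199). In these 5 genes the HIRE1del mean was 41.0 to 65.5% of the WT mean. Syt13 was no longer called without any 1 of WT replicate 3 and HIRE1del replicates 1 and 2 (adjusted p up to 0.0689), nor Sytl4 without HIRE1del replicate 2 (adjusted p up to 0.0563). Ano1 was no longer called with any 1 library but WT replicate 1 left out (adjusted p up to 0.0997). Plpp3 was no longer called with any 1 of the 6 libraries left out (adjusted p up to 0.102), nor Hpgd with any 1 library but HIRE1del replicate 3 left out (adjusted p up to 0.109).

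Slc25a12, the mitochondrial carrier of aspartate and glutamate, was higher, at 61.1, 56.01 and 64.2 CPM in WT and 86.1, 84.5 and 85.1 CPM in HIRE1del (log2 fold change 0.50 ± 0.07, adjusted p = 0.00458). It was the single call of 248 solute carriers (0.403%), a share near that of all genes. Akr1b3, or aldose reductase, was at 22.6, 21.0 and 15.5 CPM in WT and 32.3, 32.4 and 27.5 CPM in HIRE1del (log2 fold change 0.64 ± 0.13, adjusted p = 0.04997), at the threshold. Txnip, which binds thioredoxin and limits glucose uptake, was lower, at 58.1, 56.3 and 65.7 CPM in WT and 43.9, 45.1 and 47.6 CPM in HIRE1del (log2 fold change -0.40 ± 0.069, adjusted p = 0.021). Its exons share 606 bases with a gene on the opposite strand. Gpr50, an orphan receptor related to the melatonin receptors, was edgeR's single call of 57 orphan G protein-coupled receptors (DESeq2 also called Gpr153 and Gpr39 lower), at 4.84, 6.56 and 4.77 CPM in WT and 14.47, 14.9 and 13.5 CPM in HIRE1del (log2 fold change 1.404 ± 0.15, adjusted p = 0.000365). Akr1b3 was no longer called without any 1 of WT replicates 2 and 3 and HIRE1del replicates 1 and 2 (adjusted p up to 0.2), nor Txnip without any 1 of WT replicate 3 and HIRE1del replicates 1 and 2 (adjusted p up to 0.106).

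The remaining calls were single genes. Prr16, also called largen, a regulator of cell size, was at 14.7, 17.7 and 17.1 CPM in WT and 6.58, 7.09 and 6.76 CPM in HIRE1del (log2 fold change -1.28 ± 0.18, adjusted p = 0.00523), and its 3 HIRE1del values were close together. Parm1, a mucin-like membrane protein, was at 45.0, 41.8 and 46.1 CPM in WT and 30.8, 28.8 and 28.1 CPM in HIRE1del (log2 fold change -0.60 ± 0.069, adjusted p = 0.000662). Gask1b, a Golgi-associated kinase-like protein, was at 11.3, 8.98 and 8.96 CPM in WT and 6.65, 5.81 and 6.76 CPM in HIRE1del (log2 fold change -0.60 ± 0.11, adjusted p = 0.0294). All 3 were lower in each HIRE1del library than in any WT library. Rgl1, an exchange factor for Ral GTPases, was higher, at 63.2, 58.9 and 60.3 CPM in WT and 84.5, 83.1 and 77.3 CPM in HIRE1del (log2 fold change 0.43 ± 0.069, adjusted p = 0.0135). Serinc5, a multipass membrane protein, was at 78.0, 71.7 and 80.5 CPM in WT and 56.5, 63.5 and 58.2 CPM in HIRE1del (log2 fold change -0.37 ± 0.07, adjusted p = 0.0359), and the transmembrane gene Tmem132c was at 254, 272 and 275 CPM in WT and 215, 187 and 219.8 CPM in HIRE1del (log2 fold change -0.37 ± 0.073, adjusted p = 0.04997). In Erlin2, an endoplasmic reticulum protein, the groups lay close to each other, at 101, 95.0 and 88.7 CPM in WT and 76.7, 80.0 and 75.3 CPM in HIRE1del (log2 fold change -0.30 ± 0.059, adjusted p = 0.04997). Herc6, a ubiquitin ligase of the interferon response, was at 8.09, 7.47 and 8.10 CPM in WT and 4.51, 4.79 and 5.51 CPM in HIRE1del (log2 fold change -0.68 ± 0.12, adjusted p = 0.0325), while 0 of 16 genes of the interferon response list were called by edgeR, 1 was at an unadjusted p under 0.05 and DESeq2 called 0. Gask1b was no longer called with any 1 library but HIRE1del replicate 3 left out (adjusted p up to 0.147) or with the Y-linked level as a covariate (adjusted p = 0.0594), nor Rgl1 without any 1 of WT replicates 2 and 3 and HIRE1del replicates 1 and 2 (adjusted p up to 0.0829). Serinc5 was no longer called with any 1 library but WT replicate 2 left out (adjusted p up to 0.202) or with the Y-linked level as a covariate (adjusted p = 0.0919). Tmem132c was no longer called with any 1 library but HIRE1del replicate 3 left out (adjusted p up to 0.23), nor Erlin2 with any 1 library but WT replicate 3 left out (adjusted p up to 0.195) or with the Y-linked level as a covariate (adjusted p = 0.146). Herc6 was no longer called with any 1 library but HIRE1del replicate 3 left out (adjusted p up to 0.146) or with the Y-linked level as a covariate (adjusted p = 0.0919).

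Chromosome 6, which carries HIRE1 and the Hoxa cluster, held 14 of the 63, which is 1.97% of its 709 tested genes, and the share on the other chromosomes was 0 to 0.791%. Without the Hoxa cluster, 0 of 16 tested genes within 2 Mb of Hoxa2 and 5 of 73 within 5 Mb (6.85%) were called. Those 5 lie next to each other at 48448229 to 48572789 on chromosome 6 (build GRCm38), 3.59 to 3.71 Mb from Hoxa2. Sspo, which encodes the giant secreted glycoprotein SCO-spondin, was at 4.57, 5.05 and 4.80 CPM in WT and 3.16, 2.46 and 2.44 CPM in HIRE1del (log2 fold change -0.84 ± 0.15, adjusted p = 0.0244). Its neighbours were the pseudogene Zfp862-ps, at 40.9, 43.3 and 42.1 CPM in WT and 30.5, 28.95 and 26.5 CPM in HIRE1del (log2 fold change -0.56 ± 0.067, adjusted p = 0.000968), and Atp6v0e2, a subunit of the vacuolar proton pump, at 3.48, 3.58 and 4.16 CPM in WT and 7.89, 8.69 and 8.68 CPM in HIRE1del (log2 fold change 1.17 ± 0.13, adjusted p = 0.000482). Atp6v0e2 was higher and the 4 others lower. Lrrc61 was at 14.48, 14.3 and 13.6 CPM in WT and 10.9, 9.94 and 10.53 CPM in HIRE1del (log2 fold change -0.43 ± 0.082, adjusted p = 0.0359). Rarres2, the secreted attractant chemerin, was at 8.48, 8.07 and 6.46 CPM in WT and 4.62, 3.86 and 4.14 CPM in HIRE1del (log2 fold change -0.86 ± 0.17, adjusted p = 0.0378). Lrrc61 and Rarres2 share 892 exon bases on opposite strands. The tested genes on either side, Zfp467 and Repin1, were not called by edgeR, and Zfp467 was called lower by DESeq2. Zfp467 was at 22.8 and 16.6 CPM and Repin1 at 60.6 and 59.1 CPM in WT and HIRE1del. Sspo was no longer called with any 1 library but HIRE1del replicate 1 left out (adjusted p up to 0.127) or with the Y-linked level as a covariate (adjusted p = 0.0587), nor Lrrc61 with any 1 of the 6 libraries left out (adjusted p up to 0.18) or with the Y-linked level as a covariate (adjusted p = 0.106). Rarres2 was no longer called with any 1 library but WT replicate 3 left out (adjusted p up to 0.182) or with the Y-linked level as a covariate (adjusted p = 0.117). Akr1b3, Ptn, Herc6 and Cxcl12, described above, also lie on chromosome 6, at -17.86, -15.4, 5.42 and 65.0 Mb from Hoxa2. The deletion was made on C57Bl/6J chromosomes and kept on a mixed C57Bl/6J;CD1 background. The effect of the deletion and that of parental sequence linked to it therefore cannot be told apart on this chromosome. In PA3, 4 of the 5 adjacent genes were also called, with log2 fold changes of -0.82, -0.56, 0.86 and -0.47. Of the 16 tested genes listed between HIRE1 and the Hoxa cluster and around them, 0 were called by edgeR, 3 had an unadjusted p under 0.05 and DESeq2 called 1, Prr15, at 2.20 ± 0.767 CPM in WT and 5.60 ± 1.25 CPM in HIRE1del (edgeR adjusted p = 0.0732). Prr15 was singled out after its values were seen.

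The broad cell programmes held no called gene by edgeR. Among 62 cell cycle genes the median log2 fold change was 0.02, with Top2a at 1553 ± 77.7 CPM in WT and 1507 ± 78.9 CPM in HIRE1del and Mki67 at 965 ± 126 CPM in WT and 910.0 ± 69.0 CPM in HIRE1del; 3 had an unadjusted p under 0.05 and DESeq2 called 0. In 4 lists there were small shifts in one direction. Of 81 cytosolic ribosomal protein genes 67 had a positive log2 fold change (median 0.06), and of 78 oxidative phosphorylation subunits 62 (median 0.04). So had 48 of 55 replication-dependent histones (median 0.13) and 24 of 26 cholesterol and fatty acid synthesis genes (median 0.09). Of all genes, 6744 of 14383 had a positive value. At an unadjusted p under 0.05 these 4 lists held 2, 6, 2 and 1 genes, and DESeq2 called 0 in each. Rpl4 was at 1586 ± 44.2 CPM in WT and 1655 ± 67.0 CPM in HIRE1del, Atp5b at 1495 ± 44.3 CPM in WT and 1564 ± 34.4 CPM in HIRE1del and Fasn at 765 ± 49.8 CPM in WT and 838 ± 79.5 CPM in HIRE1del. Of the 363 tested genes named Zfp, 129 had a positive value (median -0.04).

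Programmes of stress and growth held no call either. Heat shock and unfolded protein genes (22 tested), immediate-early genes (24), hypoxia and glycolysis genes (37), cell cycle inhibitors and p53 targets (22), Polycomb and Trithorax genes (45) and imprinted genes (32) had 0 calls by edgeR. At an unadjusted p under 0.05 they held 0, 5, 5, 5, 2 and 8 genes in this order, and DESeq2 called 0, 1, 1, 1, 0 and 2. Those were Klf4, Gapdh, Cdkn2b and the imprinted Magel2 and Peg3. Hspa8 was at 1407 ± 259 CPM in WT and 1567 ± 300.2 CPM in HIRE1del, Jun at 105 ± 10.8 CPM in WT and 101 ± 12.2 CPM in HIRE1del, Ldha at 897 ± 73.9 CPM in WT and 945 ± 115 CPM in HIRE1del and Trp53 at 106 ± 1.70 CPM in WT and 121 ± 5.06 CPM in HIRE1del. Among the imprinted genes the growth-restraining transcript H19 was at 4209 ± 239 CPM in WT and 4412 ± 243 CPM in HIRE1del and Grb10 at 2357 ± 52.6 CPM in WT and 2399 ± 55.0 CPM in HIRE1del.

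The identity of the dissected tissue was read from 13 lists of cell type markers. The neural crest and arch mesenchyme markers summed to 2336 to 2618 CPM in WT and 2273 to 2739 CPM in HIRE1del, and all 15 were detected. None was called by edgeR, 4 had an unadjusted p under 0.05, and DESeq2 called Dlx2 and Dlx5 higher. The libraries also held transcripts of other cells. Endothelial markers summed to 509.5 to 544 CPM in WT and 536 to 541 CPM in HIRE1del, against 27.6 to 32.4 CPM in crest cells sorted from PA2, whose table was scaled separately. Epithelial markers summed to 456 to 509 CPM and 437 to 469 CPM, against 19.8 to 22.4 CPM in sorted crest, and erythroid markers to 1830 to 2733 CPM and 1885 to 3685 CPM, against 119 to 133 CPM. None of these 3 sums separated the genotypes. In such mixed tissue, fewer cells of a type and less RNA per cell cannot be told apart. Of the 63 called genes, 62 reached 1 CPM on average in the sorted crest libraries, as did 84.4% of all tested genes.

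The sums of 5 of the 13 marker lists did not overlap between the genotypes. For scale, the values of 13.2% of all tested single genes did not overlap either, and no such share was computed for sums. Pharyngeal endoderm markers summed to 54.6 to 64.9 CPM in WT and 42.0 to 45.4 CPM in HIRE1del, with Pax9 the most abundant of the 15 and the only one called. Without Pax9 the sums were 37.07 to 44.5 and 35.4 to 36.94 CPM, which nearly touch. Nkx2-1 had no count in PA2, 7 of the 15 stayed under 1 CPM, and the median of the 11 tested was -0.25. Markers of glia and Schwann cell precursors, which descend from the same crest, summed to 295 to 326 CPM and 260 to 293.5 CPM, and without Sox8 to 283 to 312 and 254 to 287 CPM, which overlap. Of the 15 tested, Sox8 was edgeR's single call and 12 had a negative log2 fold change (median -0.33), against 7637 of 14383 tested genes. The other 3 had a positive one, and at an unadjusted p under 0.05, 7 were lower and 1 higher. Metrn, the most abundant marker of this list, was at 73.8 ± 13.6 CPM in WT and 73.5 ± 21.2 CPM in HIRE1del. Ednrb was at 6.85 ± 0.275 CPM in WT and 3.52 ± 0.927 CPM in HIRE1del, Sox10 at 3.97 ± 0.898 CPM in WT and 2.20 ± 0.913 CPM in HIRE1del and Erbb3 at 38.1 ± 2.11 CPM in WT and 29.8 ± 4.31 CPM in HIRE1del. None of these 3, singled out after their values were seen, passed edgeR's test, and DESeq2 called Ednrb (edgeR adjusted p = 0.251, 0.51 and 0.398). Somite and cardiac mesoderm markers summed to 108 to 109 CPM in WT and 83.3 to 91.2 CPM in HIRE1del, and without Meox1, edgeR's single call, to 98.1 to 99.3 and 78.9 to 87.3 CPM. Their most abundant marker, Isl1, also stands in the muscle and neuronal lists and is not particular to these tissues. It was at 50.6 ± 0.715 CPM in WT and 39.8 ± 4.27 CPM in HIRE1del (edgeR adjusted p = 0.0806), and DESeq2 called it lower (adjusted p = 0.00478). Melanoblast and hindbrain sums also lay apart, at 46.1 to 47.6 and 50.0 to 53.5 CPM and at 263 to 273 and 239 to 261 CPM, each led by a gene that other cells express, Kit and Nes. Tyrp1 of the melanoblast list and Sox1, Dbx1, Olig2 and Egr2 of the hindbrain list had no count in PA2, as had Cldn5 of the endothelial list and Aif1 of the macrophage list. Muscle, smooth muscle, macrophage and neuronal sums overlapped between the groups. The part of cell composition in the results on Pax9, Sox8 and Meox1 was not tested. The sorted crest libraries of PA2 held Pax9 at 22.2 CPM, Sox8 at 14.8 CPM and Meox1 at 11.02 CPM.

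**Figure D4:**
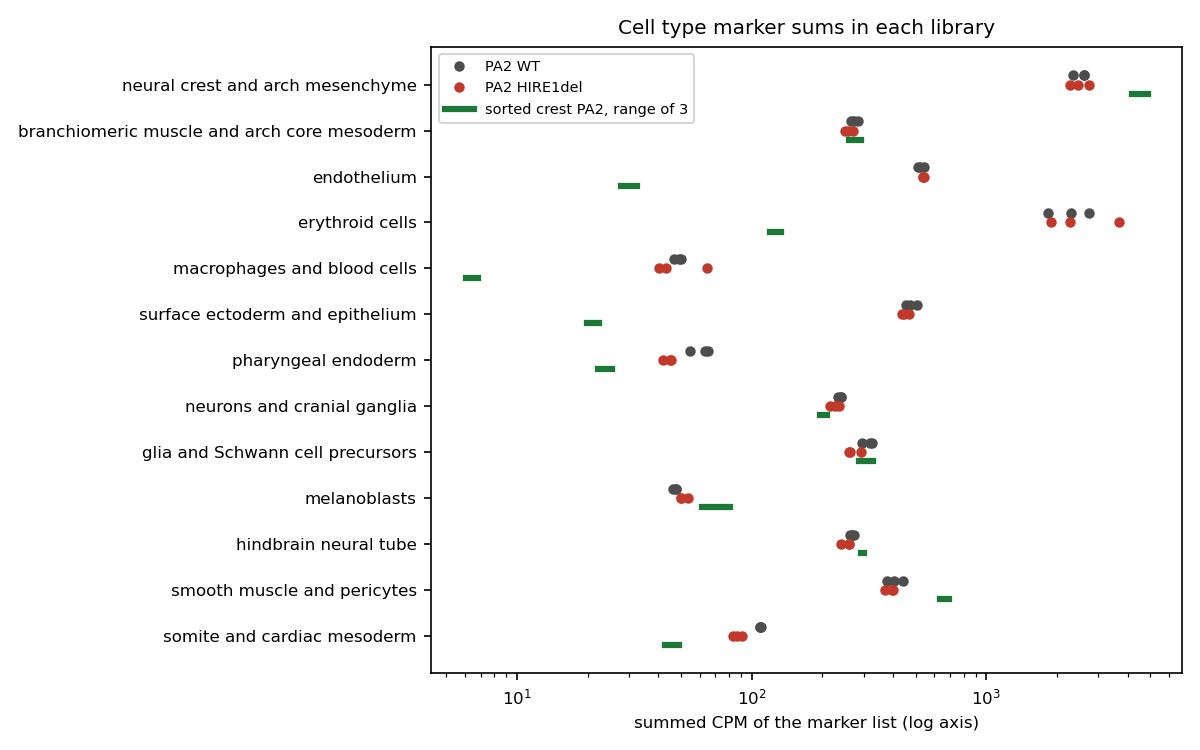
Summed CPM of 13 cell type marker lists (log axis) in the 3 WT (grey) and 3 HIRE1del (red) PA2 libraries, with the range of 3 sorted crest PA2 libraries as a green bar. Crest, endothelial, erythroid and epithelial sums overlap between genotypes, and the dissected libraries lie above the sorted ones for endothelial, erythroid and epithelial markers.

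The same deletion was profiled in PA3, the next arch behind PA2. In PA3, 31 genes were called (0.216% of the tested genes), and 19 genes were called in both arches, 30.2% of the 63 and 61.3% of the 31, each in the same direction. The sources do not say whether PA2 and PA3 libraries shared embryos, and this was not tested. Y-linked transcripts summed to 0.271, 132 and 268 CPM in WT replicates 1, 2 and 3 of PA2. In the same-numbered WT libraries of PA3 they summed to 6.62, 117 and 182 CPM. The fit took all 12 libraries as independent, so agreement between the arches is not known to be independent evidence. Of the 46 genes lower in PA2, 40 had a negative log2 fold change in PA3, and of the 17 higher 17 had a positive one. The sign was the same in both arches for 56.7% of all tested genes. The PA3 groups have their own WT and HIRE1del libraries, 3 each. Among genes beyond the Hox clusters and listed targets, Cxcl12, which lies on chromosome 6, changed alike (log2 fold change -0.54 ± 0.099, adjusted p = 0.04996 in PA3). So did Gask1b (log2 fold change -0.62 ± 0.098, adjusted p = 0.0233), Igfbp5 (log2 fold change -0.38 ± 0.055, adjusted p = 0.0123), Col5a1 (log2 fold change -0.42 ± 0.071, adjusted p = 0.0318) and Trib2 (log2 fold change 0.34 ± 0.061, adjusted p = 0.0408). Gpr50 was also called in PA3 (log2 fold change 2.43 ± 0.16, adjusted p = 1.23e-05), and the difference between the arches did not pass its test (adjusted p = 0.405).

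The test of the difference between arches called 7 genes (0.0487%), in each of which the log2 fold change was more negative in PA2. Besides Hoxa2, Hoxaas2, Meis2 and Fzd4, these were Sox8, Cntfr and Mecom. Meis2 and Fzd4 had log2 fold changes of -0.04 and 0.09 in PA3 and were not called there. The count fell to 3 without WT replicate 1 or HIRE1del replicate 2 of PA2 or HIRE1del replicate 2 of PA3, to 4 without WT replicate 2 or 3 or HIRE1del replicate 1 of PA2, and rose to 12 without HIRE1del replicate 3 of PA2. In PA3 Sox8 was at 11.5 ± 1.05 CPM in WT and 11.1 ± 0.208 CPM in HIRE1del, Cntfr at 19.5 ± 2.42 CPM in WT and 15.8 ± 0.541 CPM in HIRE1del and Mecom at 216 ± 22.5 CPM in WT and 209 ± 10.3 CPM in HIRE1del, and none of the 3 was called there. Vcam1 (log2 fold change -0.06 ± 0.19, adjusted p = 0.953 in PA3), Pax9 (log2 fold change -0.10 ± 0.14, adjusted p = 0.863) and Prr16 (log2 fold change 0.11 ± 0.18, adjusted p = 0.885) were likewise called only in PA2, but for these the difference between the arches did not pass its own test (adjusted p = 0.42, 0.143 and 0.198). Pax9 was more abundant in PA3, at 43.6 ± 6.29 CPM in WT and 40.7 ± 2.10 CPM in HIRE1del.

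**Figure D5:**
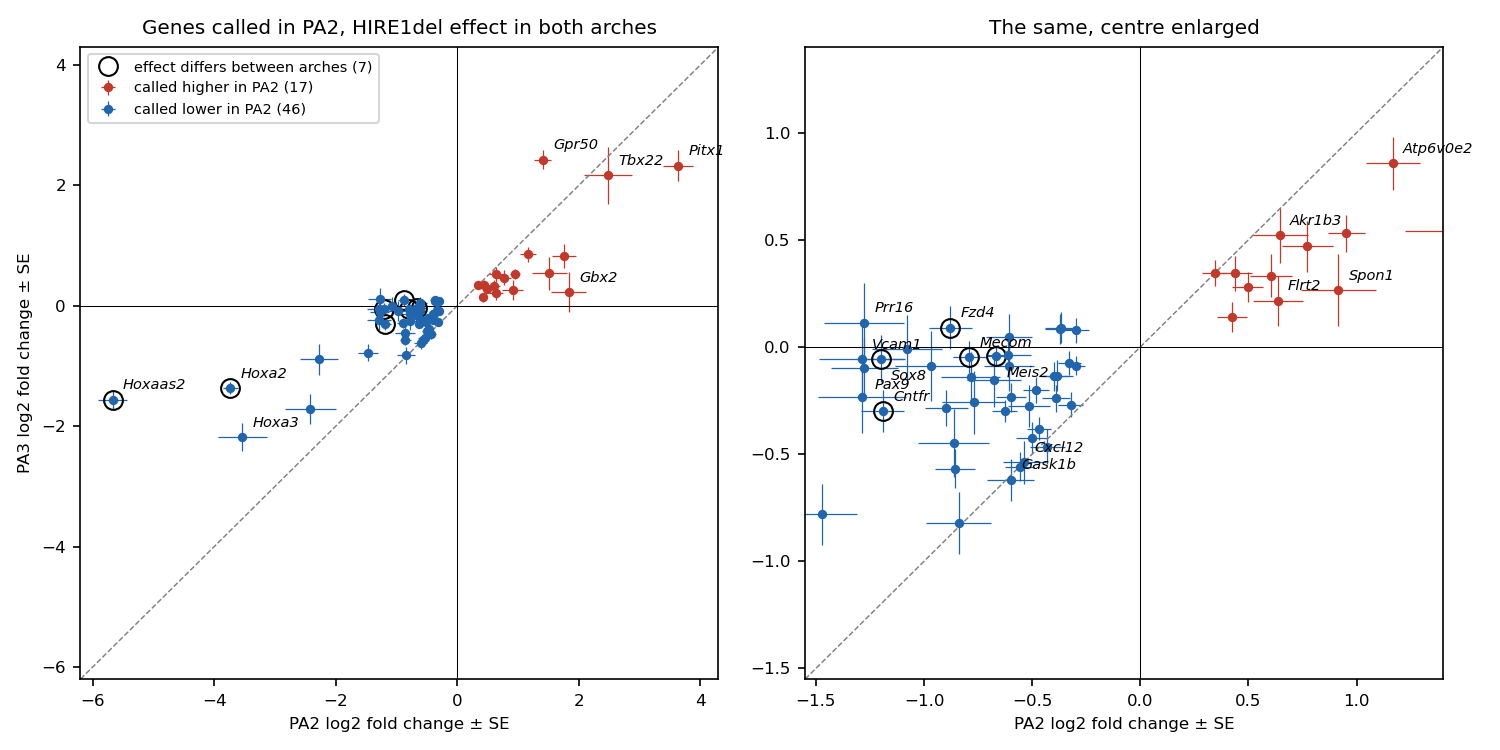
Log2 fold change of HIRE1del against WT in PA2 (horizontal axis) and PA3 (vertical axis) for the 63 genes called in PA2, with standard errors as bars, over the whole range (left) and with the centre enlarged (right). Circles mark the 7 genes whose effect differed between the arches by the test of the difference, and the dashed line marks equal change.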

How the data were processed

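The deposited values of the arch libraries were raw counts per gene, which the authors made by spliced alignment to GRCm38/mm10 (QuasR with Rhisat2) and counting over UCSC knownGene models. The counting orientation is given as opposite, while the library kit is described as unstranded. The sorted crest counts came from a separate table and were scaled separately to CPM. From the counts, 14383 of 24594 genes reached 1 CPM in at least 2 of the 12 arch libraries and were fitted together (4 groups of 3) with edgeR 4.0.16 in R 4.3.3 (TMM scaling, quasi-likelihood test, Benjamini-Hochberg adjustment, threshold 0.05). Standard errors came from the fold change and its F value. Scripts were tested on simulated data. Libraries held 25804446 to 32210131 counts. The methods of the study describe 3 independent biological replicates per sample, and nothing identifies separate litters. The p-values measure the spread between replicates within groups, estimated over all 4 groups together. With the 6 PA2 libraries alone 59 genes were called, 49 of them among the 63.

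Every called gene is named, except Hoxa2, Hoxa3 and the 12 listed targets, which are named where a list holds them. The rule also admits the most abundant uncalled members of each list (up to 4, or 3 where a member was called), of which the text names only some. Genes named for a DESeq2 call alone were chosen after their values were seen. The comparison and the gene lists were chosen with earlier results of these data known. Alternatives were other scalings and filters, DESeq2 1.42.0, limma-voom (limma 3.58.1), a replicate block, a Y-linked covariate, other thresholds, the 6 PA2 libraries alone and leaving out libraries. Results on some genes are not reported here.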

Additional observations from a re-analysis of the deposited data

Results flagged for a closer look

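The test of the difference itself (edgeR, genotype by arch, Benjamini-Hochberg adjusted over 14383 genes) called 7 genes. Each had a more negative log2 fold change in PA2 than in PA3. The difference in log2 fold change, PA2 minus PA3, was -4.11 for Hoxaas2 (adjusted p = 2.89e-05), -2.37 for Hoxa2 (adjusted p = 1.56e-05) and -1.15 for Sox8 (adjusted p = 0.0205). It was -0.97 for Fzd4 (adjusted p = 0.0225), -0.89 for Cntfr (adjusted p = 0.0409), -0.74 for Mecom (adjusted p = 0.0225) and -0.62 for Meis2 (adjusted p = 0.00151).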

How the results depend on the processing

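All 63 called genes kept their sign under each of the 17 alternatives computed per gene, and 27 also stayed called under each. The 63 calls became 162 with DESeq2, which included all 63, and 103 at an adjusted p under 0.1. Leaving out 1 library gave 33 to 66 calls. The 7 genes that differed between arches became 29 with DESeq2 and 3 to 12 with 1 library left out. Other scalings, filters and tests gave 59 to 85 calls in PA2, and the Y-linked covariate gave 66, sharing 50 with the 63. Without the libraries at both ends of the first principal component, an alternative chosen after seeing the data, 68 were called. The share of higher calls was 27% and ranged from 20% to 36.4%. The causes were not tested.

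Same-numbered WT and HIRE1del libraries correlated at 0.143, -0.186 and 0.336 in their deviations from the group means, so the numbers were not taken to pair them. With the replicate block 105 genes were called in PA2, including all 63, and 12 differed between arches. Of 245 uncalled genes of the lists, 97 changed sign under some alternative. Genes of few counts limit what depth can show: 3 counts in a library equal 0.0924 to 0.117 CPM in PA2.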
